A study of Mus musculus with 4 samples.

Results

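The collagen and laminin chain genes were described in hippocampus RNA-Seq libraries from female mice with and without aromatase in forebrain neurons, 24 h after global cerebral ischemia (GCI). The members were every gene symbol in the count tables made of Col, a number, a and a number, or of Lam, the letter a, b or c and a digit. There were 54 such genes of 22609, of which 43 were collagens and 11 were laminins. The rule uses no measured value, and the genes were split into groups by their known roles. The comparison has 4 libraries, with FLOX+GCI and FBN-ARO-KO+GCI at n = 2 each. FBN-ARO-KO mice carry floxed Cyp19a1, the gene for aromatase, which makes estradiol from androgens, and Cre driven by the CaMKIIα promoter, which is active in forebrain excitatory neurons. FLOX mice carry the floxed gene and served as controls. All mice were 3 to 5 months old, were ovariectomized 1 week before surgery, and had both common carotid arteries occluded for 20 min and then reperfused for 24 h, so no library represents an unoperated or sham brain. The comparison addresses how the loss of neuron-made estradiol alters the transcriptome of the ischemic hippocampus, here for genes of the extracellular matrix. Whether the libraries of a group came from separate mice is not stated, so p-values measure only the spread between libraries, which may in part be technical.

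Collagens are secreted or membrane-bound proteins wound from chains that carry glycine at regular intervals, and laminins are cross-shaped assemblies of an alpha, a beta and a gamma chain. In the brain, collagen IV and laminins build the basement membranes around vessels and below the glia limitans, while fibrillar collagens lie mostly in the meninges and around larger vessels, where fibroblasts make them. A few collagens, such as Col19a1 and Col25a1, are made by neurons. Fewer cells of a type and less RNA per cell cannot be told apart in bulk tissue.

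The feature that collagens share is visible in their exons. In fibrillar collagens many exons that encode the helical part are 54 nt long and hold 6 repeats of glycine and 2 further residues. Such exons were 21 of the 49 coding exons of Col1a1 in the mm9 annotation, and 28 of 61 in the fibril-associated Col22a1. At least 1 was found in 39 of the 43 collagens, but they were few in collagen IV, with 2 of 50 in Col4a1 and 1 of 45 in Col4a2. The units below come from the chains of types I and III, whose levels are compared further on, and show how alike the repeats are. Glycine codons are in capitals, and all 3 exons are on the plus strand, read from the mm9 genome as coding sequence.
Col1a1 exon 8, chr11:94801218-94801271: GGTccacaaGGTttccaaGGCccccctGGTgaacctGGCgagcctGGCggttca
Col1a2 exon 8, chr6:4465481-4465534: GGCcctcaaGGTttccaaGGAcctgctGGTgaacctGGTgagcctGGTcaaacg
Col3a1 exon 6, chr1:45382205-45382258: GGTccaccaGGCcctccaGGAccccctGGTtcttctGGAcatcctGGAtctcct
Glycine made up a median of 24.3% of the codons of the collagens, with a range of 9.17% to 31.1%. In the laminins it made up 7.04% to 9.39%, with a median of 8.17%, and in the 14004 tested genes with a coding sequence the median was 6.29%. Glycine codons begin with GG and the neighboring proline codons with CC. The tested members were richer in GC than other genes, with a median transcript GC content of 55.1% against 50.6% over all tested genes. The median was 55.95% for the tested collagens and 53.0% for the laminins, and the part of the codons in these values was not tested.

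The libraries held 24333396 to 33076795 counts on genes, and 3 counts, taken as the smallest level that can be shown, corresponded to 0.0905 to 0.122 CPM (counts scaled to library size after TMM normalization), a limit that covers counting error only. Cyp19a1 counts were 4 and 1 in FLOX+GCI, against 2 and 2 in FBN-ARO-KO+GCI, which is too few to check the genotype. Markers of excitatory neurons were abundant in every library (summed 7283 to 7623 CPM), and the markers of hippocampal fields were present (summed 646 to 671 CPM). Across 14020 genes the log2 fold change was negatively related to GC content (Spearman rho = -0.55, across genes, which are not independent replicates), and the difference between the FBN-ARO-KO+GCI libraries showed a like trend (rho = -0.48), so a fit corrected for GC content and length is described after the role groups.

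Most collagen and laminin genes had lower levels in FBN-ARO-KO+GCI than in FLOX+GCI, but none passed the threshold of an adjusted p under 0.05. Of the 54 genes, 49 had enough counts to be tested, 42 with a negative and 7 with a positive log2 fold change. The median log2 fold change of these 49 genes was -0.49, beside -0.01 over all 14527 tested genes. By the quasi-likelihood test of edgeR with Benjamini-Hochberg adjustment, 0 of the 49 were called, against 0.0138% of all tested genes. DESeq2 also called 0, but gave an adjusted p for only 5 members and called 4.60% of all genes to which it gave one. The likelihood ratio test of edgeR called 2 of the 49, beside 2.02% of all genes. At an unadjusted p under 0.05, 9 members were lower and 0 were higher, which is 18.4% of the 49, beside 7.82% of all tested genes lower and 8.72% higher. Both FBN-ARO-KO+GCI libraries lay below both FLOX+GCI libraries for 18 members (36.7%), against 25.8% of all tested genes, and above them for 1 member, against 25.9%. The 9 and the 18 include Col4a3, which passed the filter on low counts only through the FLOX+GCI libraries. Among the 38 members with a mean of at least 50 counts, which leaves Col4a3 out, 7 had an unadjusted p under 0.05 and 0 of these were higher. In that fit 17.8% of all genes passed in either direction, and the members' median was -0.51. The collagens (38 tested) had a median log2 fold change of -0.52 and the laminins (11 tested) of -0.46, and all 11 laminins had a negative value.

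These shares rest on few libraries. FLOX+GCI 1 was the highest of the 4 libraries for 34 of the 49 genes (69.4%), where it was the highest for 23.5% of all tested genes, and FBN-ARO-KO+GCI 2 was the lowest for 28 (57.1%, against 31.1%). Without FLOX+GCI 1 the median log2 fold change was -0.20, and without FBN-ARO-KO+GCI 2 the count at an unadjusted p under 0.05 was 5, whereas it was 26 without FLOX+GCI 2 and 18 without FBN-ARO-KO+GCI 1. Over all genes, in either direction, the share at that threshold also moved, from 16.5% with all libraries to 5.64%, 12.9% and 18.8% in these 3 fits. For 1 gene taken alone, 2 libraries against 2 allow no two-sided exact permutation p below 0.333.

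**Figure D1:**
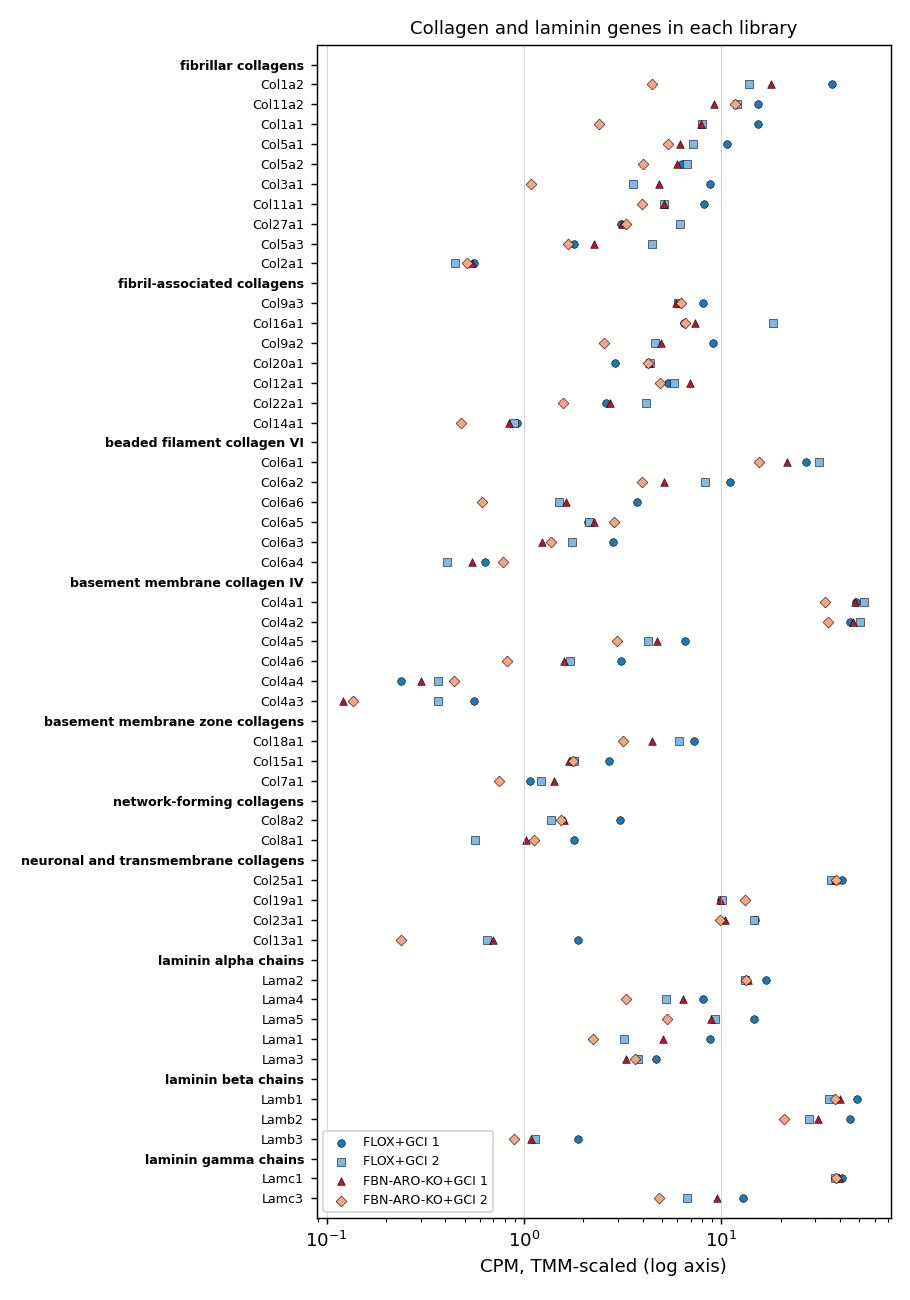
CPM of 48 of the 49 tested collagen and laminin genes (log axis) in each of the 4 libraries, 1 point per library, by role group and, within it, by mean level per kb. Over the 49 tested genes FLOX+GCI 1 is the highest library for 34 and FBN-ARO-KO+GCI 2 the lowest for 28, while Col25a1 and Lamc1 lie close together in all libraries.

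The fibrillar collagens form the tensile fibers of connective tissue. Of 11 genes, 10 were tested, 9 had a negative log2 fold change, and the group median was -0.59. Their summed level was 107.0 and 67.9 CPM in FLOX+GCI 1 and 2 and 63.4 and 38.9 CPM in FBN-ARO-KO+GCI 1 and 2. Col1a2, the second chain of type I collagen and the fibrillar gene with the highest level per kb, had 36.7 and 13.8 CPM in FLOX+GCI and 17.9 and 4.44 CPM in FBN-ARO-KO+GCI. The groups overlapped, and the fold change of -1.16 on the log2 scale (SE 0.62) had an adjusted p of 0.377. Col1a1 and Col3a1 were described after their values were seen, and in both FLOX+GCI 1 was likewise the highest and FBN-ARO-KO+GCI 2 the lowest library. Col1a1, the main chain of type I collagen, had 15.4 and 8.03 CPM in FLOX+GCI and 7.90 and 2.39 CPM in FBN-ARO-KO+GCI, a log2 difference of -1.17 (SE 0.51, adjusted p = 0.306, edgeR). Col3a1, the type III chain of vessel walls and meninges, had 8.82 and 3.57 CPM in FLOX+GCI and 4.86 and 1.09 CPM in FBN-ARO-KO+GCI (log2 difference -1.04, SE 0.64). The ranges of the individual libraries were therefore wide within each genotype, and for Col1a2 and Col3a1 FBN-ARO-KO+GCI 1 lay above FLOX+GCI 2. The chains moved in step: per kb of transcript, the level of Col1a2 was 2.64, 1.90, 2.51 and 2.06 times that of Col1a1 in FLOX+GCI 1 and 2 and FBN-ARO-KO+GCI 1 and 2. The level of Col3a1 per kb was 0.610, 0.474, 0.655 and 0.487 times that of Col1a1 in the same order.

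Col5a1, whose type V chain starts the assembly of collagen fibrils (chr2:27741945-27895034, mm9), was the fibrillar gene with the smallest p. It had 10.7 and 7.22 CPM in FLOX+GCI and 6.15 and 5.39 CPM in FBN-ARO-KO+GCI. The groups did not overlap, with a log2 difference of -0.63 (SE 0.22), an unadjusted p of 0.0215 and an adjusted p of 0.250 from edgeR. The spans of 2810430I11Rik and Gm13372 overlap that of Col5a1 on the opposite strand, and whether their exons overlap was not examined. Without strand information, reads from any shared exon cannot be assigned to 1 gene. Col11a2, a chain of the minor fibrillar type XI, had 15.4 and 12.1 CPM in FLOX+GCI and 9.23 and 11.7 CPM in FBN-ARO-KO+GCI (log2 difference -0.39, SE 0.18, adjusted p = 0.319, edgeR), with groups that lay next to each other without overlap. The other fibrillar genes, Col5a2, Col5a3, Col11a1 and Col27a1, had log2 differences between -0.66 and -0.38. Col2a1, the cartilage collagen, stood at 0.446 to 0.559 CPM in all libraries. Col24a1 was not tested, as its counts were 2 and 7 in FLOX+GCI, against 12 and 12 in FBN-ARO-KO+GCI.

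The fibril-associated collagens coat fibrils and link them to other matrix. Of 8 genes, 7 were tested, 5 with a negative log2 fold change, and 0 had an unadjusted p under 0.05. Col9a3 and Col16a1 had the highest levels per kb. Col9a3, a type IX chain, had 8.06 and 6.05 CPM in FLOX+GCI and 5.91 and 6.25 CPM in FBN-ARO-KO+GCI (log2 difference -0.21, SE 0.19, adjusted p = 0.579, edgeR), and overlaps Tcfl5 on the opposite strand. Col16a1 had 6.47 and 18.3 CPM in FLOX+GCI and 7.39 and 6.55 CPM in FBN-ARO-KO+GCI. FLOX+GCI 2 alone stood out for Col16a1, the other 3 libraries lay within 1 CPM of each other, and its log2 difference of -0.83 (SE 0.41, adjusted p = 0.353, edgeR) was 0.11 without FLOX+GCI 2. Without FLOX+GCI 1 it was -1.39 with an adjusted p of 0.00116, a fit in which the remaining FLOX+GCI library is assumed to vary like the other group. Col12a1, Col14a1, Col20a1 and Col22a1 had log2 differences between -0.63 and 0.24. Col9a2 had 9.10 and 4.63 CPM in FLOX+GCI and 4.95 and 2.56 CPM in FBN-ARO-KO+GCI (log2 difference -0.86), and Col9a1 was below the filter with 6, 11, 5 and 3 counts.

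Collagen VI, which forms beaded microfilaments next to basement membranes and around vessels, held the member with the smallest p. Its classical chains Col6a1, Col6a2 and Col6a3 were each lower in both FBN-ARO-KO+GCI libraries than in both FLOX+GCI libraries. Col6a2 (chr10:76058507-76086375) had 11.1 and 8.32 CPM in FLOX+GCI and 5.13 and 3.96 CPM in FBN-ARO-KO+GCI, so the mean in FBN-ARO-KO+GCI was 0.468 times that in FLOX+GCI. Its log2 difference of -1.09 (SE 0.21) had an unadjusted p of 0.00118 and an adjusted p of 0.238 by the quasi-likelihood test, and an adjusted p of 0.00387 by the likelihood ratio test of edgeR. Col6a1 (chr10:76171537-76188913), its neighbor on the chromosome and the type VI gene with the highest level per kb, had 26.9 and 31.5 CPM in FLOX+GCI and 21.5 and 15.6 CPM in FBN-ARO-KO+GCI. The mean ratio was 0.635 and the log2 difference -0.65 (SE 0.17), with an unadjusted p of 0.00545 and adjusted p-values of 0.238 and 0.0357 by these 2 edgeR tests. Col6a3 had 2.83 and 1.74 CPM in FLOX+GCI and 1.24 and 1.37 CPM in FBN-ARO-KO+GCI (log2 difference -0.81, SE 0.33, unadjusted p = 0.0393, adjusted p = 0.282, edgeR). For these 3 genes the spread within a genotype was smaller than for the type I chains. The other chains had higher or more scattered values. Col6a4 and Col6a5 had positive values of 0.34 (SE 0.45) and 0.26 (SE 0.25), and Col6a5 was the only tested member whose FBN-ARO-KO+GCI libraries, at 2.26 and 2.87 CPM, both lay above FLOX+GCI, at 2.12 and 2.15 CPM. Col6a6 had 3.75 and 1.501 CPM in FLOX+GCI and 1.63 and 0.615 CPM in FBN-ARO-KO+GCI, with overlapping groups.

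Collagen IV is the sheet-forming collagen of every basement membrane, and Col4a1 and Col4a2 encode its ubiquitous chains. They had the highest level per kb among the collagens, with Col4a1 at 48.5 and 53.3 CPM in FLOX+GCI and 47.8 and 33.6 CPM in FBN-ARO-KO+GCI, and Col4a2 at 44.9 and 50.6 CPM in FLOX+GCI and 46.6 and 34.9 CPM in FBN-ARO-KO+GCI. FBN-ARO-KO+GCI 1 lay within the range of FLOX+GCI for Col4a2 and just below it for Col4a1, and FBN-ARO-KO+GCI 2 was the lowest library for both. The log2 differences were -0.32 (SE 0.16, adjusted p = 0.349) for Col4a1 and -0.23 (SE 0.14, adjusted p = 0.438) for Col4a2 from edgeR. The level of Col4a2 per kb was 0.950, 0.973, 1.00 and 1.07 times that of Col4a1 in FLOX+GCI 1 and 2 and FBN-ARO-KO+GCI 1 and 2, which is nearly equal in every library. The genes lie head to head and are read from a shared start region, where their annotated first exons overlap by 22 nt. The stretch is shown because reads from it cannot be assigned to either gene unless strand is counted. Ambiguous reads were 0.265% to 0.283% of all counts in the libraries. It is taken from the RefSeq promoter sequence of build GRCm38.p6, at chr8:11312805-11312826, is written on the strand of Col4a2, and has a GC box in capitals.
Col4a1 and Col4a2 overlap: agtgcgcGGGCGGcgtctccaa

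The other collagen IV chains were far lower. Col4a5 and Col4a6, which pair in smooth muscle and epithelial basement membranes, had log2 differences of -0.48 (SE 0.30) and -0.98 (SE 0.42), and the level of Col4a6 per kb relative to Col4a5 was 0.468, 0.393, 0.332 and 0.271 in the order of libraries above. Col4a3, known from the kidney glomerulus, was close to the detection limit, with counts of 14 and 9 in FLOX+GCI, against 4 and 4 in FBN-ARO-KO+GCI. Its log2 difference of -1.81 (SE 0.60, unadjusted p = 0.0184, adjusted p = 0.248, edgeR) was the most negative among the members, but it passed the filter on low counts only through the FLOX+GCI libraries, and C430014B12Rik lies antisense to it. Col4a4, its neighbor and partner chain, had 0.239 and 0.365 CPM in FLOX+GCI and 0.302 and 0.444 CPM in FBN-ARO-KO+GCI.

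Among the collagens of the basement membrane zone, Col18a1, the core protein of a heparan sulfate proteoglycan that releases endostatin, had 7.30 and 6.13 CPM in FLOX+GCI and 4.47 and 3.18 CPM in FBN-ARO-KO+GCI. The mean ratio was 0.569, and the groups did not overlap (log2 difference -0.81, SE 0.22, unadjusted p = 0.00771, adjusted p = 0.238, edgeR), with Slc19a1 on the opposite strand of part of the gene (chr10:76514923-76629293). Col15a1, its close relative, had 2.71 and 1.79 CPM in FLOX+GCI and 1.69 and 1.78 CPM in FBN-ARO-KO+GCI (log2 difference -0.38, SE 0.30, adjusted p = 0.527, edgeR), where FLOX+GCI 1 alone stood above the rest. Col7a1, the anchoring fibril collagen of skin, stood at 0.751 to 1.42 CPM. The network-forming Col8a1 and Col8a2, known from vessel walls and the cornea, were likewise highest in FLOX+GCI 1. Col8a1 had 1.80 and 0.568 CPM in FLOX+GCI and 1.03 and 1.13 CPM in FBN-ARO-KO+GCI, and Col8a2 had 3.07 and 1.38 CPM in FLOX+GCI and 1.60 and 1.54 CPM in FBN-ARO-KO+GCI. Neither differed beyond the spread between libraries (log2 differences -0.14, SE 0.51, and -0.51, SE 0.39), and both were positive without FLOX+GCI 1, at 0.92 and 0.19. Col10a1, Col17a1 and Col28a1 were below the filter, with 1 to 3 counts for Col10a1, 1 to 3 for Col17a1 and 3, 5, 13 and 4 for Col28a1.

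The neuronal and transmembrane collagens ranged from -1.41 to 0.20 in log2 difference. Col25a1, a membrane collagen of neurons whose shed part is found in amyloid plaques, had 41.0 and 36.1 CPM in FLOX+GCI and 37.8 and 38.1 CPM in FBN-ARO-KO+GCI (log2 difference -0.02, SE 0.10, adjusted p = 0.926, edgeR). As a mean of the 4 libraries its level was 5.71 CPM per kb of transcript, close to Col6a1 at 5.83 and below Col4a1 and Col4a2 at 6.92 and 6.86, so a neuronal gene stood among the most abundant collagens of this tissue. Col19a1, which interneurons of the hippocampus make, had 10.02 and 10.1 CPM in FLOX+GCI and 9.93 and 13.3 CPM in FBN-ARO-KO+GCI (log2 difference 0.20, SE 0.17, adjusted p = 0.552, edgeR). Only FBN-ARO-KO+GCI 2 stood higher, and without it the log2 difference was -0.02.

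Col23a1, a membrane collagen with a short cytoplasmic end (chr11:51103422-51397420), was the member of this group with the smallest p. It had 14.9 and 14.7 CPM in FLOX+GCI and 10.5 and 9.83 CPM in FBN-ARO-KO+GCI, a mean ratio of 0.687. The groups were clearly apart and the libraries within each were close, with a log2 difference of -0.54 (SE 0.12), an unadjusted p of 0.00300 and an adjusted p of 0.238 from edgeR. Its log2 difference stayed between -0.59 and -0.50 when any single library was left out. Col13a1, a membrane collagen of the neuromuscular junction, had 1.88 and 0.649 CPM in FLOX+GCI and 0.694 and 0.239 CPM in FBN-ARO-KO+GCI, which is the library order of Col1a2, and its log2 difference was -1.41 (SE 0.64).

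The laminins were led by the chains that most laminin trimers contain. Lamb1, Lamb2 and Lamc1 had mean levels of 5.14 to 6.995 CPM per kb. Lamc1 was flat, and the difference in Lamb1 was small beside its spread within FLOX+GCI. Lamc1, the common gamma chain, had 41.0 and 37.9 CPM in FLOX+GCI and 39.8 and 38.1 CPM in FBN-ARO-KO+GCI (log2 difference -0.02, SE 0.09, adjusted p = 0.932, edgeR). Lamb1, the beta chain of embryonic and vascular laminins, had 49.0 and 35.1 CPM in FLOX+GCI and 39.9 and 37.9 CPM in FBN-ARO-KO+GCI (log2 difference -0.11, SE 0.15, adjusted p = 0.729, edgeR). Lamb2, the beta chain of mature vessels and synapses, had 45.3 and 27.9 CPM in FLOX+GCI and 31.0 and 20.9 CPM in FBN-ARO-KO+GCI (log2 difference -0.49, SE 0.25, adjusted p = 0.358, edgeR). The groups overlapped for all 3 genes, and per kb the level of Lamb2 was 0.951, 0.819, 0.7997 and 0.566 times that of Lamb1 in FLOX+GCI 1 and 2 and FBN-ARO-KO+GCI 1 and 2.

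Of the alpha chains, Lama2, the chain of astrocyte-facing brain basement membrane and muscle, had the highest level per kb, with 16.9 and 13.3 CPM in FLOX+GCI and 13.7 and 13.4 CPM in FBN-ARO-KO+GCI (log2 difference -0.16, SE 0.15, adjusted p = 0.603, edgeR). Lama4, an endothelial chain, had 8.10 and 5.27 CPM in FLOX+GCI and 6.40 and 3.28 CPM in FBN-ARO-KO+GCI (log2 difference -0.46, SE 0.34, adjusted p = 0.496, edgeR). Lama5, the other endothelial chain (chr2:179911078-179960564), was lower without overlap, with 14.7 and 9.29 CPM in FLOX+GCI and 8.90 and 5.33 CPM in FBN-ARO-KO+GCI. Its mean ratio was 0.592, its log2 difference -0.75 (SE 0.29), its unadjusted p 0.0353 and its adjusted p 0.274 from edgeR. Per kb, the level of Lama5 relative to Lama2 was 0.742, 0.597, 0.553 and 0.340 in the same order of libraries. Lama1, a chain of the pial basement membrane, spread from 2.25 to 8.78 CPM with overlapping groups, and Lama3 had a log2 difference of -0.28 (SE 0.21).

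Lamb3, a beta chain of epithelial laminin, had lower values in both FBN-ARO-KO+GCI libraries, at 1.09 and 0.888 CPM beside 1.88 and 1.14 CPM (log2 difference -0.60, SE 0.36). Lamc3 had 12.9 and 6.73 CPM in FLOX+GCI and 9.50 and 4.85 CPM in FBN-ARO-KO+GCI (log2 difference -0.45, SE 0.38, adjusted p = 0.551, edgeR), with overlapping groups. Without FLOX+GCI 1 the log2 differences of Lama1, Lama2, Lamb1, Lamc1 and Lamc3 were positive, between 0.03 and 0.21.

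**Figure D2:**
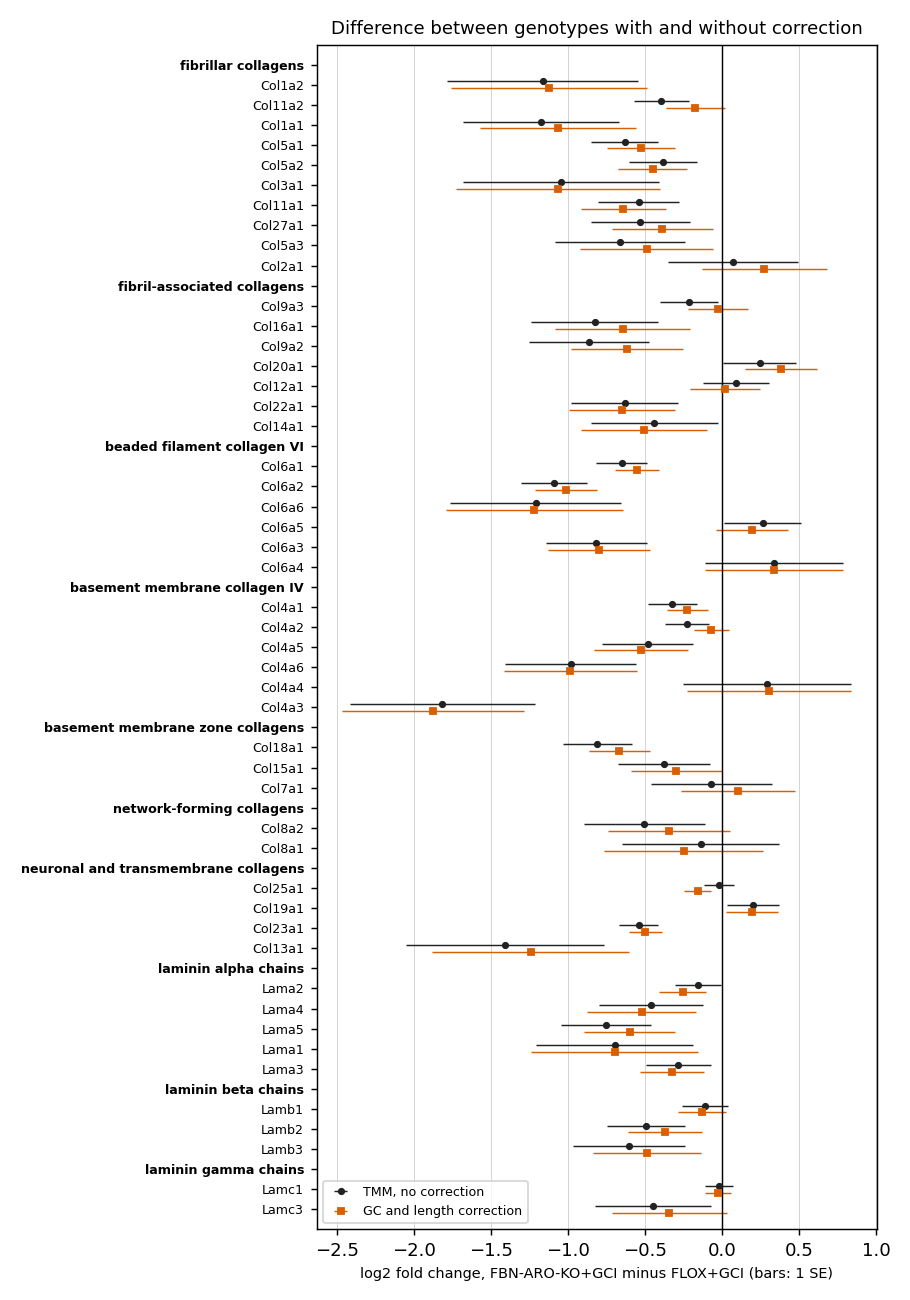
Log2 fold change of FBN-ARO-KO+GCI over FLOX+GCI for 48 of the 49 tested collagen and laminin genes by role group, with bars of 1 SE, from edgeR, uncorrected (circles) or corrected for GC content and length (squares). Most points lie left of 0 in both fits, with medians over the 49 genes of -0.49 and -0.49, and Col6a1, Col6a2, Col18a1 and Col23a1 lie several SE from 0.

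After correction for GC content and transcript length, the median log2 fold change of the 49 tested members was -0.49, and 41 had a negative value. At an unadjusted p under 0.05, 8 were lower, Col4a3 among them, and 0 were higher, against 4.58% of all tested genes lower in the same fit. Col6a2 (-1.01, SE 0.20), Col6a1 (-0.55, SE 0.14), Col18a1 (-0.67, SE 0.20) and Col23a1 (-0.50, SE 0.11) differed little from their uncorrected log2 differences, and Lama5 (-0.60, SE 0.30) had a p of 0.0847. Other log2 differences moved by more than 1.5 times or changed sign. Nearer to 0 were Col11a2 at -0.17 (SE 0.19), Col9a3 at -0.03 (SE 0.19), Col4a2 at -0.07 (SE 0.12) and Col12a1 at 0.02 (SE 0.23). Farther from 0 were Col25a1 at -0.16 (SE 0.09), Lama2 at -0.26 (SE 0.15), Col8a1 at -0.25 (SE 0.52), Col20a1 at 0.38 (SE 0.23), Col2a1 at 0.27 (SE 0.41) and Lamc1 at -0.03 (SE 0.08), and Col7a1 turned from -0.07 to 0.11 (SE 0.37).

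Several members followed markers of other cell types across the libraries. Col1a2 and Col3a1 had the library order of several genes of meningeal and perivascular fibroblasts, among them Slc6a13, Slc22a6 and Igf2. Slc6a13 had 23.2 and 9.78 CPM in FLOX+GCI and 12.9 and 2.36 CPM in FBN-ARO-KO+GCI, Slc22a6 had 17.0 and 5.84 CPM and 7.03 and 1.09 CPM, and Igf2 had 177.8 and 73.7 CPM and 100.5 and 29.9 CPM. All 10 fibroblast and meninges markers were tested, all 10 had a negative log2 fold change, none had an unadjusted p under 0.05, and the list summed to 434.0 and 253.3 CPM in FLOX+GCI and 291.9 and 193.6 CPM in FBN-ARO-KO+GCI. Foxc2, a defining meningeal factor, had counts of 28 and 6 in FLOX+GCI, against 27 and 0 in FBN-ARO-KO+GCI, whereas Pdgfra and Dcn, which other cells also express, stood at 71.8 to 78.0 and 68.7 to 93.1 CPM. Ogn, Dcn and Pdgfra departed from the library order of Col1a2. Ogn was lowest in FLOX+GCI 2 (5.56 CPM), and Dcn and Pdgfra were lowest in FBN-ARO-KO+GCI 1. The smooth muscle genes Acta2, Tagln and Myh11 had the same library order as Col1a2, but other mural markers did not. Abcc9 was highest in FBN-ARO-KO+GCI 2, Kcnj8 and Cspg4 were highest in FLOX+GCI 2, and Rgs5 was lowest in FLOX+GCI 2. The 9 mural markers summed to 222.8 and 144.0 CPM in FLOX+GCI and 174.4 and 101.8 CPM in FBN-ARO-KO+GCI. Of them, 8 had a negative log2 fold change and 1, Abcc9, a positive one (0.24). Pdgfrb and Anpep were lower at an unadjusted p under 0.05, which is 22.2% of the list, beside 7.82% of all tested genes. The 8 endothelial markers all had negative log2 fold changes and summed to 287.3 and 208.4 CPM in FLOX+GCI and 239.9 and 172.8 CPM in FBN-ARO-KO+GCI. Of them, only Cdh5 was lower at an unadjusted p under 0.05 (log2 difference -0.71), which is 12.5% of the list, beside 7.82% of all tested genes. The 9 choroid plexus markers summed to 70.1 and 58.8 CPM in FLOX+GCI and 49.2 and 56.8 CPM in FBN-ARO-KO+GCI. Of the 6 tested, 4 had a positive log2 fold change, and 2 were lower at an unadjusted p under 0.05 (33.3%, beside 7.82% of all tested genes). These were Ttr (log2 difference -0.98, unadjusted p = 0.00469, edgeR) and Prlr (-0.53, unadjusted p = 0.0265, edgeR). The part of these cell types in the collagen and laminin values was not tested.

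FLOX+GCI 2 was the highest library for 9 of the 49 tested members (18.4%), fewer than the 29.0% of all tested genes. Col4a1, Col4a2, Col5a2, Col6a1, Col20a1 and Col22a1 were among them. Besides Col16a1, Col27a1 had 3.11 and 6.21 CPM in FLOX+GCI and 3.14 and 3.31 CPM in FBN-ARO-KO+GCI, and Col5a3 had 1.80 and 4.46 CPM and 2.26 and 1.67 CPM. Gfap, the filament gene of reactive astrocytes, also peaked in this library, with 395.8 and 900.3 CPM in FLOX+GCI and 502.4 and 560.2 CPM in FBN-ARO-KO+GCI, and its part in these values was not tested. The other astrocyte markers did not peak there, apart from Aldh1l1 (59.5, 65.2, 49.7 and 51.5 CPM in FLOX+GCI 1 and 2 and FBN-ARO-KO+GCI 1 and 2). Aqp4, Slc1a2, Slc1a3 and Gja1 were highest in FBN-ARO-KO+GCI 2, and the last 3 of these were lowest in FLOX+GCI 2.

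**Figure D3:**
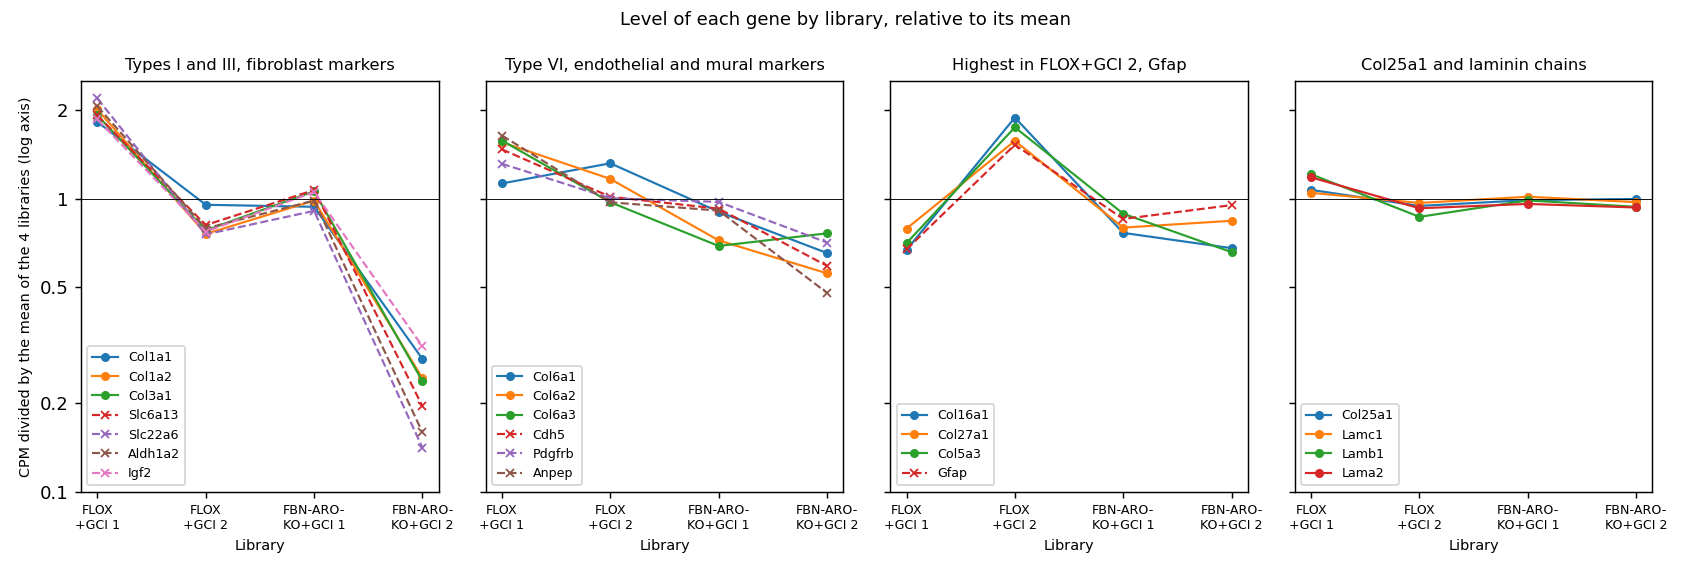
CPM of genes, selected after their values were seen, in each library divided by the gene's mean over the 4 libraries (log axis); solid lines with circles are collagens and laminins, dashed lines with crosses are cell type markers, and lines only join the points of 1 gene. Col1a1, Col1a2, Col3a1 and the fibroblast markers Slc6a13, Slc22a6, Aldh1a2 and Igf2 are highest in FLOX+GCI 1 and lowest in FBN-ARO-KO+GCI 2. Ogn, Dcn and Pdgfra of the same marker list, not plotted, have their lowest value in another library. Beside Col6a1, Col6a2 and Col6a3, only the endothelial and mural markers lower at an unadjusted p under 0.05 in edgeR (Cdh5, Pdgfrb and Anpep) are plotted. Markers of these 2 lists that are not plotted include Slco1a4, Ly6c1 and Rgs5, with log2 differences of -0.04, -0.06 and -0.07, and Abcc9, with 0.24. Col16a1, Col27a1, Col5a3 and Gfap are highest in FLOX+GCI 2. Col25a1 and Lamc1 stay near their mean, and Lama2 and Lamb1 are somewhat higher in FLOX+GCI 1.

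Start regions of members that moved with several of the fibroblast markers and of the flat neuronal collagen are shown to compare their sequence. RefSeq promoters of build GRCm38.p6 were found for 40 of the 54 members (44 start sites). The 150 bases before the start were searched on both strands for CCAAT, the binding site of NF-Y known from the type I collagen promoters, and for the GC box GGGCGG, and matches are in capitals.
Col1a2, chr6:4505468-4505617, plus strand: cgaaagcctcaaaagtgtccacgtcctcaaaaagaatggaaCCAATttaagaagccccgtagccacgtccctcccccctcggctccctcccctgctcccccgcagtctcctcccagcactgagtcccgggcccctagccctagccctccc
Col3a1, chr1:45311388-45311537, plus strand: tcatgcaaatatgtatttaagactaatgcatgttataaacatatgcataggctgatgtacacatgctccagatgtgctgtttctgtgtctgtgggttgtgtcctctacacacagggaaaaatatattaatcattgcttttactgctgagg
Col25a1, chr3:130180695-130180844, plus strand: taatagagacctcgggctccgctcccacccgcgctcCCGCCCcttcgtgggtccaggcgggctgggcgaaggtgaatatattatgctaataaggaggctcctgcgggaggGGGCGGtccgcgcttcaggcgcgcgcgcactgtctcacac
Col1a2 held 1 CCAAT match, Col3a1 held neither motif, Col25a1 held 2 GC boxes, and Col1a1 had no entry to search. CCAAT was found at 8 of the 44 member start sites (18.2%) and at 24.5% of all 32851 promoters, and the GC box at 21 (47.7%) and at 28.6%.

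The enzymes that modify, fold and process collagen chains lay near 0 as a group. Of 29 genes, 27 were tested, with a median log2 fold change of -0.01. At an unadjusted p under 0.05, 1 was lower (3.70%) and 2 were higher, beside 7.82% of all tested genes lower and 8.72% higher. The higher genes were alpha subunits of prolyl 4-hydroxylase, which makes the hydroxyproline that stabilizes the collagen helix. P4ha1 had 66.9 and 69.5 CPM in FLOX+GCI and 89.5 and 91.8 CPM in FBN-ARO-KO+GCI (log2 difference 0.41, SE 0.07, unadjusted p = 0.000765, adjusted p = 0.238 from edgeR and 0.00871 from DESeq2). P4ha2 had 10.1 and 10.1 CPM in FLOX+GCI and 13.4 and 14.9 CPM in FBN-ARO-KO+GCI (log2 difference 0.49, SE 0.13, adjusted p = 0.238, edgeR). Both genes thus had tight replicates and higher values in FBN-ARO-KO+GCI, opposite in sign to most collagens. Crtap, a partner of the prolyl 3-hydroxylase, was lower, with 6.43 and 5.60 CPM in FLOX+GCI and 4.59 and 3.07 CPM in FBN-ARO-KO+GCI (log2 difference -0.65, SE 0.23, adjusted p = 0.259, edgeR), and its unadjusted p was 0.0572 after the GC and length correction. Mia3 was listed at 0 in every library.

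Partners of laminin and collagen IV in basement membranes leaned the way of the laminins. All 15 were tested, 12 had a negative log2 fold change, and the median was -0.36. At an unadjusted p under 0.05, 4 were lower (26.7%) and 1 was higher, beside 7.82% of all tested genes lower and 8.72% higher. Fn1, fibronectin, had 99.1 and 76.2 CPM in FLOX+GCI and 65.8 and 51.8 CPM in FBN-ARO-KO+GCI (log2 difference -0.57, SE 0.15, adjusted p = 0.238 from edgeR and 0.0112 from DESeq2). Ntn4, a netrin that binds laminin gamma chains, had 5.99 and 6.73 CPM in FLOX+GCI and 4.65 and 3.76 CPM in FBN-ARO-KO+GCI (log2 difference -0.60, SE 0.19, adjusted p = 0.248, edgeR). Hspg2, perlecan, had 11.3 and 7.34 CPM in FLOX+GCI and 6.58 and 3.86 CPM in FBN-ARO-KO+GCI (log2 difference -0.83, SE 0.30, adjusted p = 0.255, edgeR). None of the 3 overlapped between genotypes, which their choice by smallest p favors. Over the list, 7 of 15 were lower without overlap (46.7%) and 1 was higher, beside 25.8% and 25.9% of all tested genes. After the GC and length correction 2 of the 15 partners were lower and 0 were higher at an unadjusted p under 0.05, beside 4.58% of all tested genes lower. Hspg2 was at -0.64 in that edgeR fit, with an unadjusted p of 0.0754.

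Receptors of collagen and laminin were nearer to 0. Of 17 genes, 15 were tested, and the median log2 fold change was -0.20. At an unadjusted p under 0.05, 3 were lower (20.0%) and 0 were higher, beside 7.82% of all tested genes lower and 8.72% higher. Mrc2, the endocytic collagen receptor of fibroblasts, had 12.7 and 7.30 CPM in FLOX+GCI and 6.52 and 3.69 CPM in FBN-ARO-KO+GCI (log2 difference -0.97, SE 0.33, adjusted p = 0.250, edgeR). Bcam, a receptor of laminin alpha 5, had 29.1 and 18.1 CPM in FLOX+GCI and 17.4 and 10.6 CPM in FBN-ARO-KO+GCI (log2 difference -0.75, SE 0.28, adjusted p = 0.266, edgeR). Ddr1, a collagen-activated kinase, had 95.02 and 99.1 CPM in FLOX+GCI and 87.0 and 70.6 CPM in FBN-ARO-KO+GCI (log2 difference -0.30, SE 0.11, adjusted p = 0.255, edgeR). After the GC and length correction Ddr1 was at -0.12 (unadjusted p = 0.131, edgeR) and Bcam at -0.53 (unadjusted p = 0.0784), while Mrc2 kept an unadjusted p under the threshold (0.0368). In that fit 3 receptors were lower and 1 was higher at this threshold, beside 4.58% of all tested genes lower. Besides Mrc2 these were Itga6 (-0.29) and Itgb1 (-0.22), which were lower, and Gpr56 (0.16), which was higher. Mrc2 and Bcam shared the library order of Lama5, their highest value being in FLOX+GCI 1 and their lowest in FBN-ARO-KO+GCI 2.

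Of 16 matrix metalloproteinase genes, 11 were tested, with a median log2 fold change of -0.17. At an unadjusted p under 0.05, 1 was lower (9.09%) and 0 were higher. This is near the 7.82% of all tested genes that were lower. Mmp19 had 1.64 and 1.14 CPM in FLOX+GCI and 0.784 and 0.478 CPM in FBN-ARO-KO+GCI (log2 difference -1.12, SE 0.40, adjusted p = 0.255, edgeR). Mmp15, a membrane-bound member, had 17.8 and 19.1 CPM in FLOX+GCI and 16.1 and 14.7 CPM in FBN-ARO-KO+GCI (log2 difference -0.26, SE 0.12, adjusted p = 0.314, edgeR). Mmp11 had 2.04 and 1.91 CPM in FLOX+GCI and 1.42 and 1.37 CPM in FBN-ARO-KO+GCI (log2 difference -0.50, SE 0.27, adjusted p = 0.381, edgeR). After the GC and length correction Mmp15 was at -0.07 (unadjusted p = 0.540), the median of the list at -0.07, and 6 of the 11 had a negative value. The collagenases Mmp8 and Mmp13 had 0 to 2 counts in every library, so no difference in them was detectable at this depth.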

How the data were processed

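Hippocampus RNA was sequenced as 50 nt single-end reads in 4 libraries. The authors aligned the reads to mm9 with TopHat2 2.0.8b (per the submitters' processing notes) and deposited raw HTSeq counts per gene symbol, with no normalization. The strand setting, annotation release and pooling of mice are not given in the sources used here. The counter entries for unassigned reads were left out, of which those without a feature were 7.96% to 8.70% and those not uniquely aligned 35.1% to 36.5% of all counts. Groups came from the sample titles.

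R 4.3.3 and edgeR 4.0.16 were used to compare genotypes on 14527 genes by quasi-likelihood, with TMM, filterByExpr (minimum count 10) and Benjamini-Hochberg adjustment over all tested genes at 0.05. The SE of a log2 fold change is its size divided by the square root of F. Alternatives were DESeq2 1.42.0 and the other settings of the closing section. The GC and length correction fits splines (5 df) to each library. Levels per kb use the longest protein-coding transcript of GENCODE M1 (NCBIM37, the same assembly as mm9). The scripts were tested on simulated data.

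Members, role groups, partner lists and markers were chosen with earlier results of these data known. Full values are given for tested members with an unadjusted p under 0.05, for the 2 members of highest level per kb in each role group, and for the 3 smallest p-values in each partner list. Libraries of a group differed by more than sampling noise (chi-square per degree of freedom 10.9 and 12.8). This value is set against counting error only and cannot tell separate mice from technical repeats. Each library was treated as a separate unit. A tested member is counted but not reported here.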

Additional observations from a re-analysis of the deposited data

How the results depend on the processing

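The members with an adjusted p under 0.05, 0 in the quasi-likelihood fit, numbered 2 with the likelihood ratio test (2.02% of all genes), and 0 to 4 when each library was left out in turn: 2 (Col6a1 and Col16a1) without FLOX+GCI 1 (1.30% of all genes) and 4 (Col6a2, Col9a2, Lama5 and Lamb2) without FLOX+GCI 2 (0.854%). These fits assume that the remaining library of a group varies like the other group. The 9 members with an unadjusted p under 0.05 became 14 with every gene of at least 1 count (14.8% of all genes, in either direction, where all settings together gave 5.64% to 18.8%), 14 with the likelihood ratio test (16.6%), and 5 to 26 when leaving out each library. They were 9 with DESeq2, 9 with DESeq-style size factors and 7 with a mean of at least 50 counts. With the replicate number as a block, 6 members had an adjusted p under 0.05 (Col1a1, Col1a2, Col3a1, Col6a1, Col6a2 and Lama5; 1.27% of all genes) and 25 an unadjusted p under 0.05 (17.5%). With the replicate block together with the GC and length correction these counts were 0 (0.00688%) and 20 (10.4%). Same-numbered libraries deviated together with a correlation of 0.13 over only 2 pairs, and the labels give the libraries nothing but a shared number, so the block was not used for the results. The median log2 fold change of the tested members kept its sign in every fit, and ranged from -0.74 to -0.20 when leaving out each library. With leave-one-out fits the log2 fold change ranged from -0.41 to 0.0095 for Col9a3, -1.39 to 0.11 for Col16a1, -0.97 to 0.19 for Col8a2, -0.74 to 0.92 for Col8a1, -0.11 to 0.074 for Col25a1, -0.018 to 0.39 for Col19a1, -0.32 to 0.031 for Lama2, -0.33 to 0.15 for Lamb1, -0.077 to 0.042 for Lamc1 and -1.02 to 0.10 for Lamc3. The other genes given in full kept their sign. The causes of these changes were not tested. Scaling by library totals only moved the median of all genes to -0.04 and the share of higher values among all genes with an unadjusted p under 0.05 from 52.7% to 39.6%, with 12 members at that threshold. Members with under about 10 counts per library allow no statement on a difference.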
